A study of Mus musculus with 6 samples.

Results

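The 6 genes described here carry dietary sugar into the enterocyte and begin the breakdown of fructose. They were Slc5a1, Slc2a2 and Slc2a5, which encode sugar transporters, and Khk, Tkfc and Fbp1, which encode enzymes. They were chosen by gene symbol, with earlier results of these data known, and all 6 were found among the 32285 genes counted in each of the 6 libraries. In the absorptive enterocyte, SGLT1, the product of Slc5a1, takes up glucose and galactose together with sodium at the brush border, and GLUT5, the product of Slc2a5, takes up fructose there. GLUT2, the product of Slc2a2, lets hexoses leave through the basolateral membrane. Inside the cell, ketohexokinase (Khk) phosphorylates fructose, triokinase (Tkfc) phosphorylates the glyceraldehyde that a later step releases, and fructose-bisphosphatase (Fbp1) acts on the way from these trioses back to glucose.

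The libraries were droplet 3' single-cell RNA-seq of mouse small intestinal organoids, which are cultures of intestinal epithelium grown in Matrigel that hold stem cells and their secretory and absorptive offspring. WT organoids, derived from mice 10 weeks old, were treated for 3 days with vehicle (-EIPA, 2 libraries) or with 5 uM EIPA, an amiloride derivative that inhibits sodium-proton exchange (+EIPA, 2 libraries). Organoids with an inducible CRISPR-Cas9 construct were left uninduced (-Dox, 1 library) or induced with 2 ug/mL doxycycline (+Dox, 1 library). They were made from WT organoids by lentiviral infection, puromycin selection and cloning, so both Dox libraries carry the integrated construct. Whether both libraries came from the same clone is not given in the sources used here. Cells were sorted as live, and in the +Dox library also as GFP-positive, that is, as cells that made the Cas9 protein.

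Each library held 14319 to 25481 barcodes and 176388405 to 249350351 UMIs (unique molecular identifiers, one for each captured transcript). A barcode counted as a cell when it had 1000 genes or more and a mitochondrial share below 20%, which left 12083 to 18211 cells per library and 87954 in all, with a median of 11478 to 17020 UMIs per cell. Any 2 libraries shared 71 to 143 barcodes, or 0.496% to 0.74% of the smaller set. Levels are given in CPM, the UMIs of a gene per 1000000 UMIs of the same cells, from counts added up by class and library. A 3' UMI does not scale with transcript length, but capture can differ between genes, so levels were compared within a gene and not between genes.

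Cell classes were rebuilt by clustering on 3000 variable genes that held none of the 6 genes and none of the other sugar genes described here, and clusters were named only from fixed marker lists. A total of 5218 cells in clusters 10 and 15 were mature enterocyte-like, 5570 cells in cluster 5 were early enterocyte-like, and 7077 cells in clusters 2 and 23 carried enterocyte markers without a stage that the markers could settle. The markers set the mature class apart, but the early enterocyte markers did not set the early class apart from the mature one. The mature enterocyte markers summed to 4615 to 9094 CPM in mature enterocyte-like cells against 651 to 1432 CPM in early enterocyte-like cells and 181 to 295 CPM in ISC-like cells. The early enterocyte markers summed to 6965 to 9062 CPM in early, 7294 to 9279 CPM in mature and 2242 to 3470 CPM in ISC-like cells. Cluster 5 took the name early because its 20 leading genes by fold held more early than mature markers, while over the whole lists 12 early and 14 mature markers were above the level in all other cells. Cluster 15 had few UMIs and many mitochondrial UMIs, and its cell numbers and its levels of Slc5a1 and Fbp1 are given apart. The names may differ from those of the study, whose own annotation was not used here. Since classes are clusters of these same cells, levels by class are a description and were not tested.

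Slc5a1 was highest in mature enterocyte-like cells, lower in enterocyte-like cells of no assigned stage and lower again in early enterocyte-like cells, in this order in each of the 6 libraries. Mature enterocyte-like cells held 1319 and 1020 CPM without EIPA against 1250 and 1354 CPM with it, 2895 CPM in the -Dox library and 3467 CPM in the +Dox library. Early enterocyte-like cells held 146 and 82.3 CPM, 182 and 183 CPM, 458 CPM and 866 CPM in the same order of libraries. The ISC-like, proliferating, Goblet/Paneth-like, EEC-like, tuft-like and revival-like classes held 23.3 to 120 CPM of Slc5a1 in the WT libraries and 130 to 489 CPM in the CRISPR libraries, always below the early enterocyte-like cells of the same library. Among those 6 classes the ranges overlapped, so no order beyond the 3 enterocyte classes can be read. Slc5a1 spans chr5:33104219-33162870 on the plus strand, where the processed pseudogene Gm15936 overlaps it on the same strand and 5033423K11Rik on the other, so strand cannot separate its reads from those of Gm15936.

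Slc2a2 was the gene whose level in early enterocyte-like cells was the smallest part of its mature level in the WT libraries without EIPA. Its level in mature enterocyte-like cells was 206 and 172 CPM without EIPA against 197 and 221 CPM with it, 266 CPM in the -Dox library and 398 CPM in the +Dox library. Its level in early enterocyte-like cells was 4.43 and 2.54 CPM without EIPA against 13 and 15.2 CPM with it, 15.2 CPM in the -Dox library and 60.8 CPM in the +Dox library. In the early class the +EIPA values lay above both -EIPA values, as for 10.4% of all genes tested there. The 4 WT values overlapped in the mature class. Enterocyte-like cells of no assigned stage lay between, at 56.5 to 214 CPM. The 6 other named classes held 0.477 to 15.8 CPM in the WT libraries, and in the first -EIPA library the revival-like cells, at 15.8 CPM, exceeded the early enterocyte-like cells.

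The promoter of Slc2a2 is shown because its level separated the stages and because its change with EIPA differed between stages. Promoter sequences are from RefSeq (build GRCm38.p6), run 5′ to 3′ from 250 bases before to 50 bases after the annotated start, and have in capitals every match on either strand to 6 short motifs. These were GTTAAT for HNF1, CAAAGT for HNF4, AGGTCA as a shorter HNF4 core, TTTATG for CDX2, AGATAA for GATA factors, and the E-box CACGTG. The Slc2a2 promoter on chr3:28697653-28697952, plus strand, had matches that begin at -250 (ACTTTG, the reverse complement of CAAAGT) and at -21 (AGGTCA).
Slc2a2: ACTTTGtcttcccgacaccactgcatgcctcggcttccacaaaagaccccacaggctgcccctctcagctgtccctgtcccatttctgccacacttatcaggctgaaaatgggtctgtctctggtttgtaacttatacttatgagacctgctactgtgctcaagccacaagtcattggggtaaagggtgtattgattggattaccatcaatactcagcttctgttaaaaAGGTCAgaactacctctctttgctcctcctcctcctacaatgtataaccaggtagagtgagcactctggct
Of 32851 promoters of this length, 14.4% held CAAAGT and 16.3% held AGGTCA on either strand, so a match by itself is common. In the GENCODE annotation Slc2a2 spans chr3:28697903-28731359 and the antisense transcript 1700112D23Rik overlaps it, so reads of the 2 can be split only by strand.

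Slc2a5 in mature enterocyte-like cells stood at 164 and 115 CPM without EIPA against 100 and 102 CPM with it. The +EIPA values lay below both -EIPA values, as for 27.7% of all 10110 genes tested in this class. In the CRISPR line Slc2a5 stood at 378 CPM in the -Dox library and 384 CPM in the +Dox library. Early enterocyte-like cells had 11.8 and 5.28 CPM without EIPA against 18 and 11.4 CPM with it, 20.9 CPM in the -Dox library and 60 CPM in the +Dox library. These early values were no higher than those of enteroendocrine (EEC)-like cells in 5 of 6 libraries.
The Slc2a5 promoter on chr4:150119094-150119393, plus strand, had none of the 6 motifs, which says only that these letters were not in this window.
Slc2a5: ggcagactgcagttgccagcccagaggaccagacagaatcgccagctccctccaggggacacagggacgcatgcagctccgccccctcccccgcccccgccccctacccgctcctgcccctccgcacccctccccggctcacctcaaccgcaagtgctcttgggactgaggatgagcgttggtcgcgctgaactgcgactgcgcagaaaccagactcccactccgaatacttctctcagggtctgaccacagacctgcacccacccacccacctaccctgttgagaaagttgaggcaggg

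Khk was present in all classes and, of the 6 genes, kept the largest part of its mature level in early enterocyte-like cells in each library but +Dox, where Tkfc did. Mature enterocyte-like cells held 847 and 722 CPM without EIPA against 809 and 952 CPM with it, 2060 CPM in the -Dox library and 2657 CPM in the +Dox library. Enterocyte-like cells of no assigned stage held 800 and 564 CPM, 948 and 875 CPM, 1452 CPM and 1824 CPM in the same order, so the ranges of these 2 classes overlapped in WT and in the first +EIPA library the order was turned. Early enterocyte-like cells held 301 and 219 CPM without EIPA against 367 and 312 CPM with it, above the 47.5 to 107 CPM of the 6 other named classes in WT.

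Tkfc in mature enterocyte-like cells stood at 1449 and 1028 CPM without EIPA against 1218 and 1143 CPM with it, 1579 CPM in the -Dox library and 1684 CPM in the +Dox library. The 4 WT values overlapped between the groups. Early enterocyte-like cells held 257 and 152 CPM without EIPA against 386 and 300 CPM with it, 353 CPM in the -Dox library and 667 CPM in the +Dox library. Both +EIPA values were above both -EIPA values, as for 10.4% of all genes tested in this class. The Tkfc promoter is shown as the third of the genes whose change with EIPA differed between stages.
On chr19:10604209-10604508, minus strand, it had matches to the HNF4 letters that begin at -186 (ACTTTG) and at -123 (CAAAGT).
Tkfc: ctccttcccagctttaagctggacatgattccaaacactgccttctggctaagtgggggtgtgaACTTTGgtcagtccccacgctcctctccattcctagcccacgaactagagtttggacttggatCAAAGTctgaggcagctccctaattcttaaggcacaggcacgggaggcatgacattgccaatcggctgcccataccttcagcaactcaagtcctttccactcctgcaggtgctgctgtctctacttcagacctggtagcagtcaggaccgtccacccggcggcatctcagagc
In the GENCODE annotation (GRCm38) Tkfc, on the minus strand, spans chr19:10587791-10605654 with several transcript starts, and the RefSeq start used for this window lies inside that span, so the window is upstream of 1 start and within the gene for others. Tkfc overlaps Cyb561a3 and Ddb1 on the other strand, which the counting could separate only by strand.

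Fbp1 was high in mature enterocyte-like cells, while in early ones of the -EIPA libraries it was no higher than in ISC-like cells. Mature enterocyte-like cells held 191 and 88.2 CPM without EIPA against 135 and 182 CPM with it, 136 CPM in the -Dox library and 149 CPM in the +Dox library. Early enterocyte-like cells held 12.1 and 9.22 CPM, 10.3 and 9.5 CPM, 1.94 CPM and 8.56 CPM in the same order. ISC-like cells held 15.1 and 11.6 CPM, 9.65 and 7.38 CPM, 0.647 CPM and 2.14 CPM, below the early class in the other 4 libraries. The 6 classes outside the enterocyte classes held 3.59 to 15.1 CPM in the WT libraries and 0.447 to 7.11 CPM in the CRISPR libraries. The 7.11 CPM was that of Goblet/Paneth-like cells in the +Dox library. It fell to 2.9 CPM with likely doublets, barcodes that may hold several cells, removed. There Slc5a1 fell from 305 to 147 CPM and Slc2a2 from 24.2 to 8.93 CPM.

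**Figure D1:**
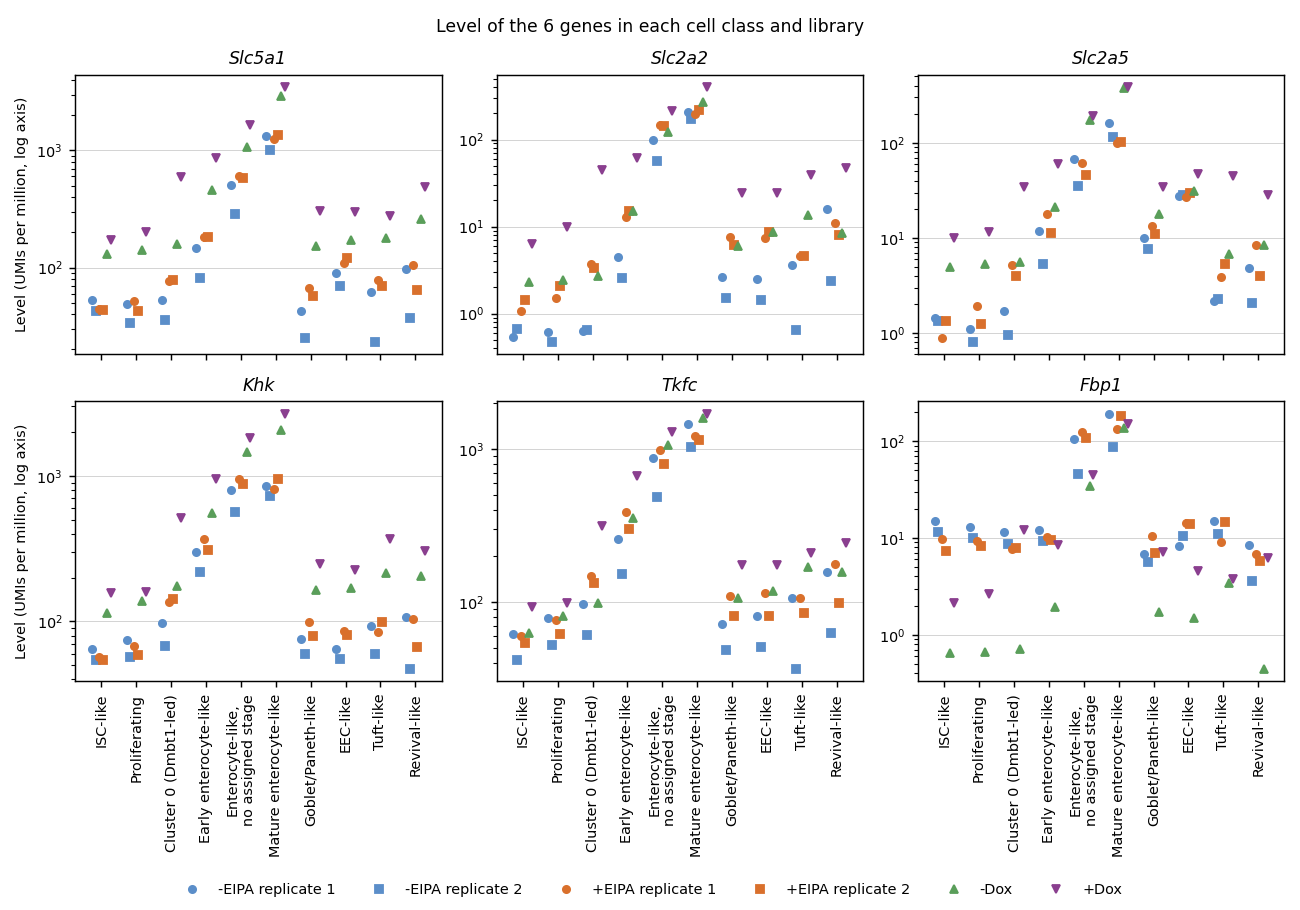
Level of each gene in CPM on a log axis (vertical) by cell class (horizontal), 1 point for each of the 6 libraries, circles for replicate 1 and squares for replicate 2 of the WT groups and triangles for the CRISPR libraries. Of the 36 pairs of gene and library 35 are highest in mature enterocyte-like cells, Slc5a1 at 1020 to 3467 CPM. The exception is Khk in the first +EIPA library. Slc2a5 is also raised in EEC-like cells, at 26.9 to 46.8 CPM, and in Goblet/Paneth-like cells, at 7.61 to 34.7 CPM.

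As a percent of the mature level in the same library, Khk and Tkfc held a larger part of their level in early enterocyte-like cells than each of the 3 transporters did, in each of the 6 libraries. Early enterocyte-like cells held a median of 34.2% of the mature level for Khk (27.1% to 45.4% over the 6 libraries) and 24.3% for Tkfc (14.8% to 39.6%). For the transporters it was 14% for Slc5a1 (8.07% to 25%), 9.22% for Slc2a5 (4.6% to 18%) and 6.16% for Slc2a2 (1.48% to 15.3%). Fbp1 was at 6.05% (1.43% to 10.4%), and its ISC-like cells were at a median of 5.62%. The ranges over libraries of Tkfc and Khk overlapped, as did those of Slc2a5, Slc2a2 and Fbp1.

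Within the mature class, clusters 10 and 15 did not hold the genes alike, and their shares differed between libraries. Cluster 15 had 151 and 121 cells without EIPA, 406 and 425 with it, 212 in the -Dox and 384 in the +Dox library. Cluster 10 had 145 and 46, 349 and 487, 556 and 1936 in the same order. With cluster 10 alone as the mature class, chosen after the data were seen, 0 of 9271 genes passed with EIPA in edgeR without a replicate block. Slc5a1 stood at 830.9 to 3255 CPM in cluster 10 and at 1223 to 5422 CPM in cluster 15, and was higher in cluster 15 in each library. Fbp1 went the other way, at 117 to 231 CPM in cluster 10 and 56.7 to 119 CPM in cluster 15. Cluster 15 had a median of 4734 UMIs per cell, 13.9% of them mitochondrial, against 14639 UMIs and 6.89% in cluster 10, and the part of this in the gene differences was not tested.

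Slc2a5 was also raised outside the enterocyte classes. In EEC-like cells, the hormone-producing cells of the epithelium, it stood at 27.6 and 28.4 CPM without EIPA against 26.9 and 29.7 CPM with it, 31.5 CPM in the -Dox library and 46.8 CPM in the +Dox library. In ISC-like cells of the same libraries it stood at 1.45 and 1.33 CPM, 0.881 and 1.35 CPM, 5.01 CPM and 9.89 CPM. Goblet/Paneth-like cells also lay above ISC-like cells, at 7.61 to 13.3 CPM in WT, 17.9 CPM in the -Dox and 34.7 CPM in the +Dox library. With likely doublets removed they held 9.71 and 8.46 CPM without EIPA against 10.3 and 11.3 CPM with it. The EEC-like level was a median of 20.8% of the mature level for Slc2a5, over a range of 8.35% to 29.2%, against medians of 7.73% for Slc5a1 and 3.48% for Slc2a2. Among enterocyte markers this median ran from 2.55% for Apoc3 and 2.64% for Apoa4 over 7.44% for Alpi and 9.21% for Fabp1 to 14.6% for Sis, whose range of 11.8% to 19% overlapped that of Slc2a5. The part of RNA shed by enterocytes in these levels was not tested. After each cell was thinned to 2000 UMIs, Slc2a5 had a UMI in 5.61% to 8.36% of EEC-like cells and in 0.216% to 1.69% of ISC-like cells. Without thinning the shares were 19.4% to 27.5% and 0.908% to 14.5%, at medians of 5108 to 6735 UMIs per EEC-like cell and 10232 to 16022 UMIs per ISC-like cell. In cluster 21, the EEC-like cells led by the hormone genes Gip and Cck, Slc2a5 stood at 38.8 to 41.8 CPM in the 4 WT libraries. Slc5a1 stood there at 162 and 137 CPM without EIPA against 197 and 228 CPM with it, above the early enterocyte-like cells of the same library in each of the 4. Over the 6 libraries the cluster held a median of 30.6% of the mature level for Slc2a5, 25.7% for Sis and 13.5% for Slc5a1. The CRISPR line had few such cells, and its EEC-like cells carried EEC markers at 4608 and 5815 CPM against 39484 to 46154 CPM in WT, so the class is not alike in the 2 lines.

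Most cells with UMIs of several of the 6 genes were enterocyte-like, 75.2% to 88.9% of them in each library. At 2000 UMIs per cell, 65.6% and 56.8% of mature enterocyte-like cells without EIPA against 61.2% and 67.4% with it, 86.1% in the -Dox library and 93.9% in the +Dox library had UMIs of 3 or more of the genes. The shares among early enterocyte-like cells were 6.72% and 3.68%, 12% and 11.1%, 22.6% and 52.2% in the same order, and in ISC-like cells 0.142% to 2.35%. In cluster 0 they were 0.174% to 1.94% but 17.7% in the +Dox library, and in the other unnamed clusters together 2.64% to 11.7% in WT, 25% in the -Dox and 47.6% in the +Dox library. Both +EIPA shares in early cells exceeded both -EIPA shares, while in mature cells the 4 overlapped. Fbp1 had a UMI in 2% and 2.48% of thinned early enterocyte-like cells of the -EIPA libraries and in 2.98% and 2.29% of ISC-like cells. For Slc2a2 the early shares were 0.735% and 1.1% without EIPA, 2.29% and 3.63% with it, against 0% to 0.463% in WT ISC-like cells. Without thinning, Slc2a2 had a UMI in 4.2% and 2.58% of early cells without EIPA, and with it in 10.6% and 16.3%. The part of free RNA in these shares was not tested.

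To see the genes along the enterocyte range without cluster borders, all enterocyte-like cells were ordered by the percent of their UMIs from 14 markers of any enterocyte stage and 24 mature markers, none of them a gene described here, and divided into 5 equal parts with limits common to all libraries. Of the 36 pairs of gene and library, 35 had the highest level in the top part and 34 rose at each step. The exceptions to a rise at each step were Slc5a1 and Khk in the +Dox library, where 68% of cells of the lowest part were of the mature class. Slc2a2 in the first -EIPA library went from 2.87 CPM in the lowest part to 16.1, 50, 98.9 and 250 CPM in the top part. In the same library Khk went from 262 to 1413 CPM and Slc5a1 from 132 to 1061 CPM, a smaller rise. A score from the mature markers alone, chosen after the data were seen, gave 34 and 34 of the 36.

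**Figure D2:**
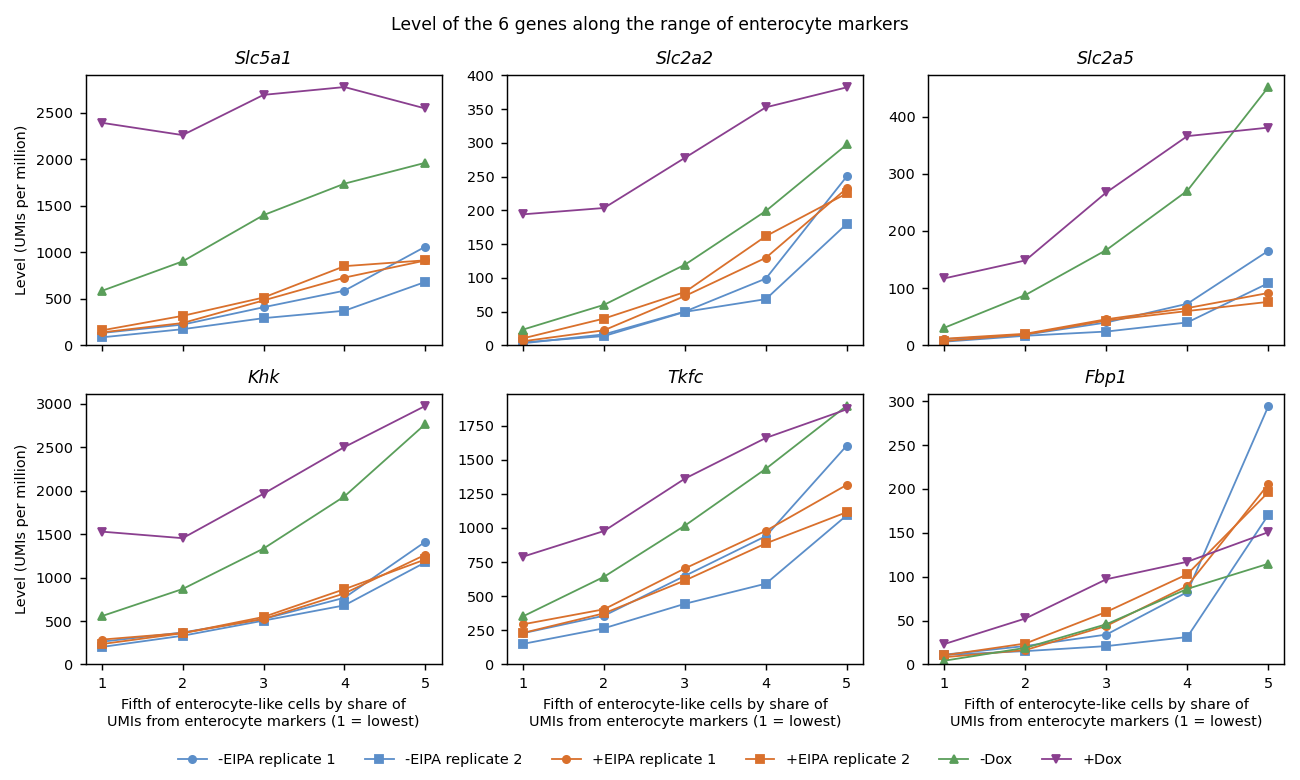
Level of each gene in CPM (vertical) in 5 equal parts of the enterocyte-like cells ordered by the share of UMIs from enterocyte markers (horizontal, 1 the lowest), 1 line for each library. Nearly all lines rise, with 35 of 36 highest in the top part. Both CRISPR lines lie above the WT lines in every part for Slc5a1, Slc2a2, Slc2a5, Khk and Tkfc, but not for Fbp1.

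The genes whose levels followed each of the 6 most closely were other enterocyte genes. Over the 54 sums of 9 named classes in 6 libraries, with log2(CPM + 1) values of 9473 genes, Dao was among the 3 genes most like Slc5a1, with a Pearson r of 0.962. Slc2a2 was most like Dnah2 (0.976), G6pc (0.97), which encodes the last enzyme of glucose release, and Cyp3a11 (0.962). Slc2a5 was most like Asah2 (0.936), Sis (0.934), which encodes sucrase-isomaltase, and Slc17a4 (0.93). Khk was most like Cyp3a25 (0.972) and Smim24 (0.967). Gpd1 (0.978) and Cyp4f14 (0.974) were among the 3 genes most like Tkfc. Fbp1 had the loosest partners, Ephx2 (0.882), H2-Q1 (0.875) and Ggt1 (0.874). The sums of a library share its depth and its cells, so these values are a description with no p.

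Whether EIPA changed these genes was tested in sums per class with the 2 libraries of each group, by edgeR's quasi-likelihood test with Benjamini-Hochberg adjustment over all genes tested. The study's source tables put the libraries of 1 number in 1 experiment, which the labels do not state, and the same test with the replicate number as a block is given where it changes a call. In mature enterocyte-like cells no member passed. Of 10110 genes tested there, 0% passed, 644 had an unadjusted p under 0.05, and DESeq2 called 2. In these sums the log2 fold changes of +EIPA over -EIPA were 0.25 ± 0.26 (SE, n = 2 and 2; adjusted p = 0.866) for Slc5a1, 0.24 ± 0.20 (adjusted p = 0.827) for Slc2a2 and -0.39 ± 0.21 (adjusted p = 0.791) for Slc2a5. They were 0.26 ± 0.24 (adjusted p = 0.839) for Khk, 0.02 ± 0.27 (adjusted p = 0.996) for Tkfc and 0.23 ± 0.33 (adjusted p = 0.909) for Fbp1. With the replicate block, under which 0.415% of genes passed, the 6 adjusted p-values were 0.697 to 0.987. The level of Slc2a5 in both +EIPA libraries was below that in both -EIPA libraries, as was that of 27.7% of all genes tested.

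In early enterocyte-like cells none of the 6 genes passed in edgeR without the block, and 5 of them passed with it, all higher in the +EIPA libraries. With the block 7.23% of the 11101 genes tested passed, 5.18% higher and 2.05% lower. Without it 0.027% of all genes did. Slc2a2 had the largest change of the 6, with a log2 fold change of 2.15 ± 0.27 (SE, n = 2 and 2; edgeR adjusted p = 0.0876) and 2.16 ± 0.22 (adjusted p = 7.06e-06) with the replicate block. With the block, Slc2a5 rose by 0.93 ± 0.17 (adjusted p = 0.00163), Tkfc by 0.89 ± 0.10 (adjusted p = 1.45e-05), Slc5a1 by 0.84 ± 0.14 (adjusted p = 0.000835) and Khk by 0.51 ± 0.09 (adjusted p = 0.00131) on the log2 scale. The adjusted p-values without it were 0.524, 0.36, 0.391 and 0.44. Fbp1 was the exception, at 0.01 ± 0.16 (adjusted p = 0.98) with the block. DESeq2 without the block called Slc2a2 (adjusted p = 1.11e-06) and Tkfc (0.0226), where 0.928% of genes were called higher. With no filter on low counts edgeR without the block called the same 5 genes as with it (adjusted p = 6.17e-19 to 0.0452), where 1.99% were called higher. That fit had the same libraries and model, but 16855 genes entered the spread that edgeR shares over genes. Its p-values, like those of this setting in other classes, thus depend on the filter and are not further replication. Both +EIPA values lay above both -EIPA values for Slc2a2, Slc5a1, Khk and Tkfc, and 10.4% of all genes tested were of this kind. With no block, leaving out 1 library changed these calls. Such a fit leaves 1 library alone in its group and assumes that it varies like the other group, so its p-values are not given for this class. Which of the 6 genes passed depended on the library left out, and none did without the second +EIPA library.

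**Figure D3:**
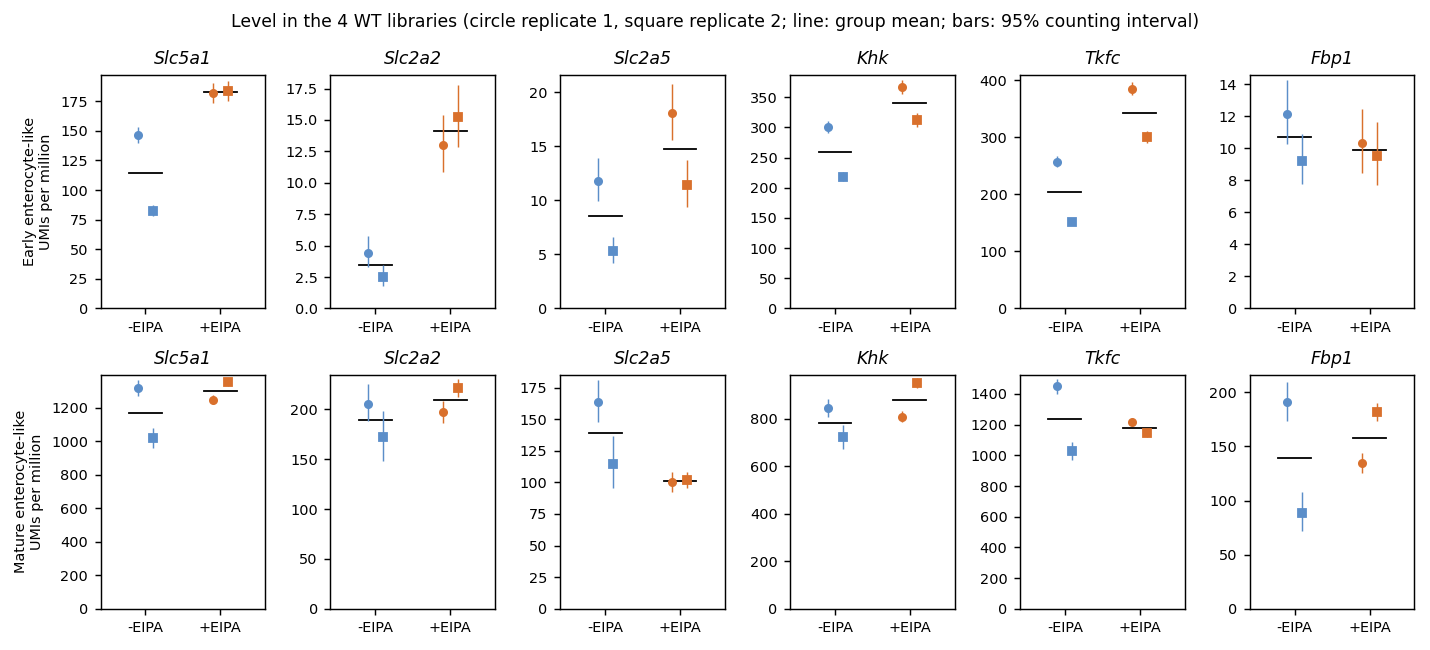
Level of each gene in CPM (vertical, from 0) in early (top) and mature (bottom) enterocyte-like cells of the 4 WT libraries, with lines for the group means and bars for 95% counting intervals. Slc2a2 in early cells is at 4.43 and 2.54 CPM without EIPA against 13 and 15.2 CPM with it, while in mature cells the groups overlap for all but Slc2a5.

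The change with EIPA differed between the 2 stages for 3 of the 6 genes. In a model of both classes with the library as a term, 92 of 11606 genes (0.793%) passed. The change was lower in mature than in early enterocyte-like cells for 87 of them (0.75%) and higher for 5 (0.0431%). The difference, mature minus early on the log2 scale, was -1.91 ± 0.22 (SE; 4 libraries; edgeR adjusted p = 2.32e-06) for Slc2a2, -1.29 ± 0.22 (adjusted p = 0.000697) for Slc2a5 and -0.85 ± 0.18 (adjusted p = 0.0123) for Tkfc. For Slc5a1 it was -0.59 ± 0.19 (adjusted p = 0.194), for Khk -0.25 ± 0.19 (adjusted p = 0.811) and for Fbp1 0.27 ± 0.23 (adjusted p = 0.853). Enterocyte markers also differed in this way. Of the markers of any enterocyte stage 3 of 14 passed with a lower change in mature cells. Of the mature markers 4 of 23 did, and 1 passed with a higher one. The median differences were -0.56 and -0.55 for these 2 lists, against -0.72 for the 6 genes. The difference for Slc2a2 lay between -2.12 and -1.16 over the 12 alternatives tried, and it passed in each that kept all 4 libraries. Fits without 1 library leave 1 library alone in its group, so their p-values are not given. One of the alternatives, finer clusters, did not compare the same early cells. Its early class was a Dmbt1-led cluster of 7121 cells, against 5570 cells in cluster 5. There 3 markers of any enterocyte stage were above the level in all other cells, against 11 in cluster 5. Tkfc lost its call when classes were set by marker score (edgeR adjusted p = 0.223) and with finer clusters (0.383). With 1 library left out, the call of Slc2a5 did not hold without the first +EIPA library. That of Tkfc did not hold without the first or without the second +EIPA library.

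Most markers of mature enterocytes and of any enterocyte stage also had higher levels with EIPA in the early class, though none passed in edgeR without the block. There 19 of 19 mature enterocyte markers tested and 13 of 14 markers of any enterocyte stage had log2 fold changes above 0, with medians of 0.72 and 0.91, where 47.5% of all genes were above 0. In the same fit the 6 genes had a median of 0.82, between these, and none of them passed either. Calls of the markers with the block are not given, so they cannot be set beside those of the 6 genes. Of the early enterocyte markers 9 of 14 were above 0, with a median of 0.16, and of the ISC markers 2 of 11, with a median of -0.32. The summed levels were 1002 and 651 CPM without EIPA against 1432 and 1238 CPM with it for the mature markers, and 13912 and 9421 CPM against 21596 and 19008 CPM for the markers of any stage. In the mature class the medians were 0.30 and 0.41. Of the 11 immune and stromal markers none had enough counts to be tested in either class. The mature class itself held 2.35% and 0.917% of cells without EIPA against 5.72% and 6.39% with it. The part of the marker levels in the change of the 6 genes was not tested.

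In matched parts of the enterocyte range the genes did not behave alike. Slc2a2 and Slc5a1 were higher in both +EIPA than in both -EIPA libraries in parts 1 to 4, Tkfc in parts 1 and 2, Slc2a5 in parts 2 and 3, and Khk and Fbp1 in parts 3 and 4, while Fbp1 was lower in part 1. Of all genes with at least 10 UMIs 13.1%, 13.2%, 16.4%, 17.8% and 12.8% were higher in this way in parts 1 to 5, and 28% were lower in part 1. Slc2a2 in part 1, the lowest, stood at 2.87 and 4.16 CPM without EIPA against 5.91 and 10.2 CPM with it. The values were 16.1 and 13.6 CPM against 22.2 and 39.5 CPM in part 2 and 50 and 49.5 CPM against 73 and 78.9 CPM in part 3. In part 4 they were 98.9 and 68.4 CPM against 129.7 and 161.8 CPM. With this score its +EIPA values lay between the -EIPA values in part 5, the top, at 232.7 and 225 CPM with EIPA against 250 and 180 CPM without it. Slc2a5 in the top part was 165 and 109 CPM without EIPA against 91.4 and 75.8 CPM with it, lower with EIPA in both libraries, as were 23.2% of genes. Khk overlapped in part 1, at 262 and 201 CPM without EIPA against 286 and 234 CPM with it, and in part 2, at 368 and 330 CPM against 362 and 360 CPM. Of the cells in the lowest part 3.55% and 2.48% of -EIPA cells and 14.9% and 17.1% of +EIPA cells were of the mature class, so the parts still differed in makeup. In the top part the mature class made up 14.4% and 4.13% of -EIPA cells and 17.6% and 23.8% of +EIPA cells, so in these libraries it was mostly of no assigned stage.

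The result for each gene depended on the score that set the parts. With parts set by the mature markers alone, chosen after the data were seen, Slc2a2 was again higher in both +EIPA libraries in parts 1 to 4, but Slc5a1 only in parts 1 and 2, Tkfc in part 1, Khk in parts 2 and 3, Fbp1 in part 3 and Slc2a5 in none. Of all genes 8.55%, 10.5%, 12.3%, 12.1% and 15.3% were higher in this way in parts 1 to 5. In the top part, where the mature class made up 57.7% and 59.1% of -EIPA and 63% and 66.6% of +EIPA cells, Slc2a2, Slc2a5, Khk, Tkfc and Fbp1 were lower in both +EIPA libraries, as were 25.8% of genes. Slc2a2 stood there at 286 and 285 CPM without EIPA against 251 and 270 CPM with it, and Slc2a5 at 207 and 199.9 CPM against 116 and 103 CPM. Slc2a5 was lower with EIPA in part 4 as well, as were 25.1% of genes. Higher Slc2a2 in parts 1 to 4, higher Slc5a1 in parts 1 and 2, higher Tkfc in part 1, higher Khk and Fbp1 in part 3 and lower Slc2a5 in part 5 were common to both scores.

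The enterocyte-like cells of no assigned stage were compared after the data were seen. With the replicate block 5 of the 6 genes rose, where 6.4% of all 11717 genes tested passed, 4.78% higher and 1.62% lower. Both +EIPA values lay above both -EIPA values for Slc2a2, Slc5a1, Khk and Fbp1, as for 10.8% of genes. The log2 changes were 1.08 ± 0.14 (edgeR adjusted p = 1.31e-06) for Slc2a2, 0.85 ± 0.15 (0.000185) for Fbp1, 0.76 ± 0.15 (0.000458) for Slc5a1, 0.58 ± 0.14 (0.00583) for Tkfc and 0.57 ± 0.13 (0.00521) for Khk. Slc2a5 was at 0.27 ± 0.14 (adjusted p = 0.271). Without the block no gene of the 11717 passed (0%), 1100 had an unadjusted p under 0.05 and DESeq2 called 166, among them Slc2a2 (adjusted p = 0.0134; 1.25% of genes called higher). With no filter on low counts edgeR without the block called Slc2a2 (5.75e-07), Fbp1 (0.00106) and Slc5a1 (0.00298), where 2.01% were called higher. Here 20 of 21 mature markers tested were above 0, with a median of 0.64.

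Outside the enterocyte classes Slc2a2 was again the gene with the largest change. In crypt-like cells, the ISC-like and proliferating classes together, the ISC-like cells of the groups lay mostly in different clusters, with 1190 and 2508 -EIPA cells against 214 and 78 +EIPA cells in cluster 3 and 220 and 67 against 2096 and 2699 in cluster 6. Proliferating cells of both groups lay in clusters 1 and 4. In these crypt-like cells Slc2a2 rose by 1.59 ± 0.22 on the log2 scale (edgeR adjusted p = 0.000378) and Fbp1 fell by 0.38 ± 0.08 (adjusted p = 0.00748) with the replicate block, where 8.05% of 13836 genes passed, 4.65% higher and 3.4% lower. Slc2a2 and Slc2a5 were above, and Fbp1 below, both -EIPA values in both +EIPA libraries, as were 7.47% and 30.3% of genes. The level behind this is low, with Slc2a2 in ISC-like cells at 0.543 and 0.667 CPM without EIPA against 1.07 and 1.45 CPM with it. Slc5a1, Slc2a5, Khk and Tkfc did not pass, at 0.18, 0.48, -0.0059 and 0.16. In secretory-like cells (Goblet, Paneth, EEC and tuft) Slc2a2 rose by 1.95 ± 0.22 (adjusted p = 0.011), Slc5a1 by 0.85 ± 0.12 (0.0256) and Tkfc by 0.74 ± 0.10 (0.0189) with the block, where 0.884% of 14034 genes did. All 6 genes were higher in both +EIPA libraries than in both -EIPA libraries there, as were 7.2% of all genes. With likely doublets removed and the block kept, chosen after the data were seen, 187 of 13379 genes passed, 145 of them higher. The changes were then 1.03 for Slc2a2 (edgeR adjusted p = 0.149), 0.44 for Slc5a1 (0.0307) and 0.38 for Tkfc (0.111). The groups overlapped for Slc5a1, Slc2a5, Khk and Tkfc. Fbp1 was then lower in both +EIPA libraries, at 5.74 and 6.26 CPM without EIPA against 4.93 and 5.65 CPM with it. Slc5a1 then stood at 42.1 and 31.2 CPM without EIPA against 51.1 and 40.9 CPM with it. Before likely doublets were removed, 27.5% of all genes tested were lower in both +EIPA libraries of this class. Markers of any enterocyte stage were above 0 in 12 of 14 in secretory-like cells and in 11 of 14 in crypt-like cells. The part of RNA shed by enterocytes in the levels and changes of both classes was not tested. Without the block 0% of genes passed in either class, while 654 and 624 had an unadjusted p under 0.05 and DESeq2 called 105 and 100. Among these were Slc2a2 in crypt-like cells (adjusted p = 0.0144; 0.455% of genes called higher) and Slc2a2 (2.23e-05) and Slc5a1 (0.00694) in secretory-like cells, where 0.634% were called higher. With no filter on low counts edgeR without the block called Slc2a2 in crypt-like cells (0.0395; 0.197% higher) and Slc2a2 (2.03e-07), Slc5a1 (0.000203) and Tkfc (0.00264) in secretory-like cells, where 0.949% were called higher.

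Over all cells kept, the levels of all 6 genes were higher in both +EIPA libraries than in both -EIPA libraries, which held for 13.5% of all 15890 genes tested. Slc2a2 stood at 13.5 and 5.74 CPM without EIPA against 30.9 and 31 CPM with it. Slc5a1 stood at 127 and 64.8 CPM against 196 and 187 CPM. In such sums more enterocytes and more RNA of these genes per enterocyte cannot be told apart. With the replicate block, where 4.47% of genes were higher, Slc2a2 (log2 fold change 1.89 ± 0.30, edgeR adjusted p = 0.0422), Khk (0.82 ± 0.14, 0.0442) and Slc2a5 (0.95 ± 0.17, 0.05 after rounding) passed. Tkfc (0.053), Slc5a1 (0.0579) and Fbp1 (0.0894) did not. Without the block 0% passed, 1601 genes had an unadjusted p under 0.05 and DESeq2 called 614, among them Slc2a2 (adjusted p = 7.67e-05), Slc5a1 (0.00773) and Khk (0.0179), where 3.39% were called higher. The -EIPA and +EIPA libraries are the same in all these classes, so the comparisons are not independent of each other.

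**Figure D4:**
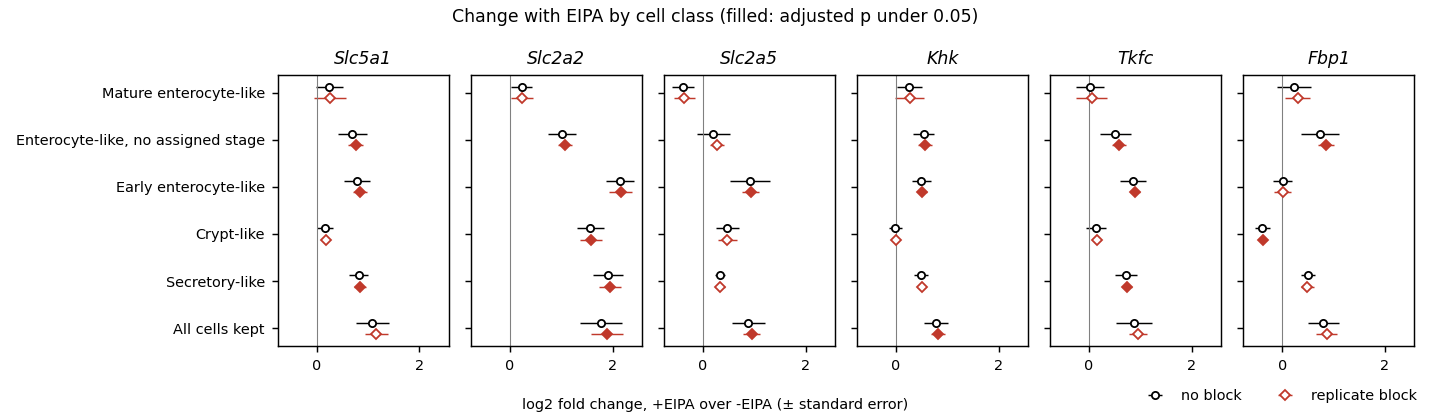
log2 fold change of +EIPA over -EIPA with its standard error (horizontal) by cell class (vertical) for each gene, black circles without and red diamonds with the replicate block, filled where the adjusted p was under 0.05. Slc2a2 lies at 2.15 in early and at 0.24 in mature enterocyte-like cells, and no symbol is filled in the mature class.

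The other genes of sugar handling were taken from 7 lists and are given first for early enterocyte-like cells with the replicate block, where 5.18% of all genes were higher. None of them passed without the block. With it 3 of 4 disaccharidase genes tested rose, among them Sis, whose product splits sucrose into glucose and fructose, by 0.90 ± 0.11 (edgeR adjusted p = 4.46e-05), and Mgam, the maltase-glucoamylase, by 0.68 ± 0.10 (0.000406). Of the other fructose and polyol genes 3 of 5 rose, with Hkdc1 at 0.46 ± 0.11 (0.0155). Of the gluconeogenic genes 4 of 9 rose, with Gpd1, which joins triose phosphate to glycerol metabolism, at 0.78 ± 0.09 (3.02e-05), while Fbp2 did not pass (0.17, 0.283). Of the other sugar transporters 2 of 6 rose, with Slc5a4b at 1.14 ± 0.21 (0.00243), while Slc2a1, the widespread glucose transporter GLUT1, did not pass (0.13, 0.671).

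The galactose and sensing lists had no gene that passed in early enterocyte-like cells. None of the 4 galactose genes did, Galm being at 0.29, and none of the 5 sugar-sensing genes did, Txnip being at -0.15 and Mlx at 0.23. Of 6 transcription factors known to act on sugar genes 1 rose, Hnf4g, by 0.37 ± 0.09 (edgeR adjusted p = 0.0155), with Hnf4a at -0.04. Median log2 fold changes without the block were 0.82 for the 6 genes, 0.75 for the disaccharidases, 0.58 for the other transporters, 0.49 for the gluconeogenic, 0.35 for the fructose and polyol, -0.0023 for the galactose, -0.11 for the sensing genes and -0.06 for the factors, against -0.02 for all genes tested. No gene of these lists passed in mature enterocyte-like cells with or without the block, among them Sis (0.13), Mgam (0.17), Gpd1 (0.16), Slc5a4b (0.54) and Slc2a1 (-0.44) in the fit without it. Of these lists G6pc, the glucose-6-phosphatase that makes free glucose, and Gk, glycerol kinase, changed less in mature than in early cells, by -2.17 ± 0.35 (adjusted p = 0.000697) and -1.32 ± 0.24 (adjusted p = 0.00144), and both were named after their values were seen. G6pc in early cells stood at 1.17 and 0.534 CPM without EIPA against 4.3 and 3.6 CPM with it.

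With 1 library in each Dox group no test was made, and the +Dox library was gated on GFP. The 2 libraries are compared by the log2 ratio of their levels with the 95% interval of counting error, which leaves out the spread between cultures. Over the 54 pairs of gene and named class, the interval lay above 0 in 51, against 12.6% of all pairs of class and gene with at least 10 UMIs. With likely doublets removed it lay above 0 in 46 and below 0 in 2, and with classes set by marker score above 0 in 46 and below 0 in 1. The share over all genes is not given for these 2 settings, so their counts have no background. Khk and Tkfc in proliferating cells turned to ratios below 0 under both, and Slc2a5 in EEC-like and Slc2a5 and Fbp1 in unassigned enterocyte-like cells with doublets removed. All 6 were higher in early enterocyte-like cells of the +Dox library, where 12.6% of genes were. Slc2a2 went from 15.2 to 60.8 CPM there, a log2 ratio of 1.99 (1.79 to 2.2), Slc2a5 from 20.9 to 60 CPM (1.52, from 1.33 to 1.71), Slc5a1 from 458 to 866 CPM (0.92, from 0.88 to 0.96) and Khk from 558 to 948 CPM (0.77, from 0.72 to 0.81). Tkfc had a ratio of 0.92 (0.87 to 0.97), and Fbp1, at only 43 and 70 UMIs, of 2.14 (1.57 to 2.72). With likely doublets removed Fbp1 had 33 UMIs in the -Dox and 27 in the +Dox library, at 1.69 and 4.12 CPM, a smaller ratio.

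In mature enterocyte-like cells the same ratios were smaller for each of the 6 genes. They were 0.58 (0.51 to 0.65) for Slc2a2, 0.37 (0.34 to 0.39) for Khk, 0.26 (0.24 to 0.28) for Slc5a1, 0.14 (0.04 to 0.23) for Fbp1 and 0.09 (0.06 to 0.12) for Tkfc, where 11.5% of genes had an interval above 0. Slc2a5 did not separate, at 0.02 (-0.03 to 0.08). In the crypt classes Slc2a2 had a ratio of 1.46 (1.03 to 1.91) in ISC-like and 2.04 (1.79 to 2.29) in proliferating cells, at levels of 2.29 to 10 CPM. These classes lay mostly in different clusters in each library. Cluster 3 held 1889 -Dox and 62 +Dox ISC-like cells, cluster 12 held 17 and 2382, and cluster 17 held 2 -Dox and 1556 +Dox proliferating cells. The part of RNA shed by enterocytes in the low crypt levels was not tested. The mature class held 4.36% of cells in the -Dox and 19.2% in the +Dox library, with 9903 and 15801 median UMIs per cell. Summed mature markers in early cells were 930 and 1366 CPM. The Dmbt1-led cluster 0, which was left unnamed, had the largest ratio of Slc2a2, at 4.07 (3.72 to 4.42), from 2.68 to 44.9 CPM, with 3508 and 192 cells. Induction, the gate, the library and, if it differed, the clone cannot be told apart.

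**Figure D5:**
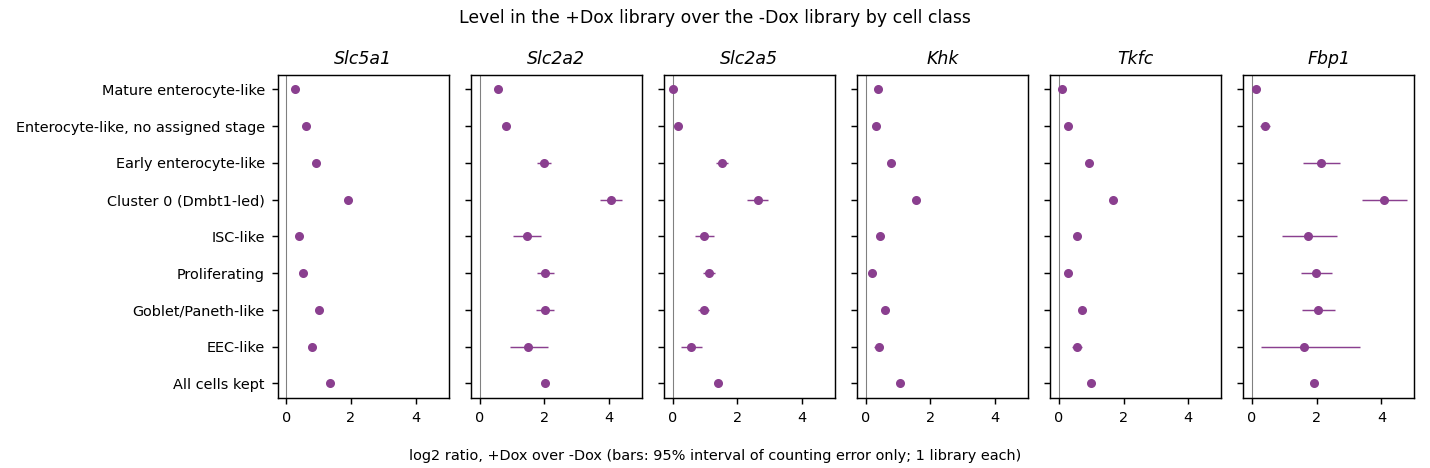
log2 ratio of the level in the +Dox library over the -Dox library (horizontal, bars for the 95% interval of counting error only) by cell class (vertical) for each gene. Ratios are larger in early enterocyte-like cells, 1.99 for Slc2a2, than in mature enterocyte-like cells, 0.58.

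The other sugar genes in the Dox libraries were not all higher. Among early enterocyte-like cells Sis had a ratio of 1.19 (1.16 to 1.22), Gpd1 0.82 (0.73 to 0.91) and G6pc 2.74 (2.38 to 3.11). Slc2a1 had a lower level in the +Dox library, at -0.77 (-1.01 to -0.55), as did Hnf4a, at -0.31 (-0.44 to -0.19). Galm did not separate (-0.10, from -0.21 to 0.01).

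The uninduced -Dox library and the vehicle-treated -EIPA libraries were not alike in these genes. In mature enterocyte-like cells the -Dox level was 2.72 times the mean of the -EIPA libraries for Slc2a5, 2.63 times for Khk and 2.48 times for Slc5a1, against 1.41 times for Slc2a2, 1.28 times for Tkfc and 0.974 times for Fbp1. In early ones Slc2a2 was at 4.37 times and Slc5a1 at 4.01 times, while Fbp1 was at 0.182 times. In ISC-like cells Fbp1 stood at 0.647 CPM in the -Dox library against 11.6 to 15.1 CPM in the -EIPA libraries. The CRISPR line had 1 uninduced library, whose label names no vehicle, so these are differences between libraries and were not tested. Line, vehicle and preparation cannot be told apart in them.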

How the data were processed

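The authors deposited, for each of the 6 libraries, a filtered matrix of raw UMI counts with no normalization (32285 genes). Per the labels and the study's methods the libraries were made with the 10x 3' v3.1 kit, about 20000 cells were loaded for each, and reads were aligned to mm10 (GRCm38) with Cell Ranger 6.1.2. A barcode counted as a cell when it had 1000 genes or more and a mitochondrial share below 20%. Pearson residuals (theta 100) of 3000 variable genes, which left out the 6 genes and the other sugar genes, gave 45 components, a graph of 20 neighbours and 25 Leiden clusters at resolution 0.8 (Python 3.11.15, igraph 0.11.9, numpy 2.4.6, scipy 1.17.1, pandas 2.3.3). No batch integration was applied. Clusters took a name from fixed markers. How many markers a name needs was set after the clusters were seen.

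Scrublet (scanpy 1.11.5) found no working threshold in 2 libraries (0% called), so cells were kept in the main results and the tenth of cells with the highest score in each library was removed in an alternative. Counts were summed by class and library and tested with edgeR 4.0.16 (R 4.3.3; quasi-likelihood F test, TMM, its low-count filter, Benjamini-Hochberg, threshold 0.05). DESeq2 1.42.0 was an alternative. The block on replicate number rests on the study's statement of 2 separate preparations and on its source tables, which pair -EIPA and +EIPA libraries of 1 number as 1 experiment. The labels give only the number. The correlation, over genes, of how libraries with 1 number deviate from the mean of their group was 0.209 (mature), 0.503 (early), 0.739 (crypt-like), 0.565 (secretory-like), 0.69 (all cells) and 0.507 (no assigned stage). Dox ratios have exact conditional 95% intervals. Thinning drew 2000 UMIs per cell and left out shallower cells. Intervals cover counting error only. The edgeR fits without the block were checked on simulated counts with 200 changed genes per comparison. They recovered 38.1% of 2-fold and 88.9% of 4-fold changes among 9913 genes of the mature comparison. Among 10941 genes of the early comparison they recovered 60.2% and 93%. Unchanged genes were also called, 9 in the mature, 20 in the early, 31 in the crypt-like, 24 in the secretory-like and 31 in the all-cells comparison. Fits with the replicate block were not simulated.

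The 6 genes and all lists were chosen with earlier results of these data known. The 6 genes were always to be named. From each of the 7 other lists, genes past the threshold in the mature or early comparison were to be named, and since none passed without the block, the 2 of highest mean CPM were. For likeness, the 3 genes of highest Pearson r among genes with a mean of 5 or more CPM were named. A few genes these rules would name, and the target of the CRISPR construct, are not reported here. The study gives 2 separate preparations for the WT groups. Whether both came from 1 organoid line is not given in the sources used here. Without the block, p-values measure the spread between libraries of a group. With it they measure how the change with EIPA varied between the replicate numbers. In the model of both stages they measure how the stage difference varied between libraries. With so few libraries edgeR drew much of each gene's spread from all genes tested, most of all in the fits with the block. A small adjusted p is therefore not replication of that gene alone.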

Additional observations from a re-analysis of the deposited data

Results flagged for a closer look

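Of the genes tested for a different change with EIPA in mature and in early enterocyte-like cells, 3 of the 6 sugar uptake and fructose genes and 2 of the 41 other genes of the sugar lists tested had an interaction term past the threshold, as had 0.793% of all 11606 genes tested. The differences, mature minus early on the log2 scale, were -1.91 for Slc2a2, -1.29 for Slc2a5, -0.85 for Tkfc, -2.17 for G6pc and -1.32 for Gk. In each of them the early change was above 0 and the mature change smaller or below 0. Enterocyte markers did so too, with 3 of 14 markers of any stage and 4 of 23 mature markers past the threshold in this direction. G6pc lost its call with classes set by marker score (edgeR adjusted p = 0.128) and with finer clusters (0.0760), and Gk with both (0.487 and 0.699). The call of Gk also did not hold without the first +EIPA library, a fit that leaves 1 library alone in its group.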

How the results depend on the processing

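The counts of genes past the threshold depended on the tool and the block. DESeq2 called 2 genes in mature enterocyte-like cells, 125 in early ones, 166 in those of no assigned stage, 105 in crypt-like, 100 in secretory-like and 614 in all cells, where edgeR without the block called 0, 3, 0, 0, 0 and 0. The replicate block gave 42, 803, 750, 1114, 141 and 839 in the same order, the block with likely doublets removed 91, 844, 1925, 997, 187 and 1167, and no filter on low counts 90, 476, 449, 70, 219 and 198. Library size alone as scaling gave 0 in early, 40 in secretory-like and 44 for the difference between stages (92 in the report), and shifted the median log2 fold change of all genes by -0.095 in mature, -0.11 in early and -0.13 in unassigned enterocyte-like cells. Classes by marker score gave 7 in mature, 5 in early, 4 in unassigned cells and 54 for the difference. Removing likely doublets gave 10 in early and 1 in unassigned cells, finer clusters 1 in mature, 1 in early and 46 for the difference, and stricter limits on cells 7 in secretory-like cells. With 1 library left out in turn the counts were 0 to 93 in mature, 3 to 439 in early, 0 to 98 in unassigned, 0 to 177 in secretory-like and 0 to 137 in all cells, and 43 to 218 for the difference. The highest were without the first -EIPA library, but in secretory-like cells without the first +EIPA library. The cause was not tested for any of these. The replicate block changed no other call of the 6 genes than those in the report. Over all cells, Slc5a1 (0.0341) and Tkfc (0.0339) also passed (edgeR adjusted p) with likely doublets removed and the block. In that fit 1167 of 15630 genes passed, 956 of them higher.

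Among single genes, the direction turned in these cases. Hnf4a in mature cells was 0.0095 with DESeq2, 0.0070 with DESeq2 size factors, 0.0086 in the mature cluster of more UMIs alone, 0.031 with no filter, 0.0085 with the block and 0.012 with finer clusters, which also turned Hnf4a in early cells (0.031) and Hkdc1 in mature cells (0.037). Fbp1 in early cells was -0.12 without doublets (-0.13 with the block), -0.10 with library size, -0.0047 with no filter and -0.24 with finer clusters, and in secretory-like cells -0.071 without doublets (-0.066 with the block). Tkfc in mature cells was -0.0067 without doublets and -0.071 with library size. Library size gave -0.063 for Fbp2 in mature cells. Of the Dox ratios, marker score turned Khk (-0.11) and Tkfc (-0.044) in proliferating cells. Removal of doublets turned Khk (-0.12) and Tkfc (-0.070) in proliferating cells, Fbp1 (-0.024) and Slc2a5 (-0.031) in unassigned enterocyte-like cells and Slc2a5 in EEC-like cells (-0.24).

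With 1 library left out, the values that crossed 0 in mature cells ranged from -0.23 to 1.07 for Fbp1, -0.17 to 0.32 for Fbp2, -0.0077 to 0.41 for Gpd1, -0.23 to 0.15 for Hkdc1, -0.18 to 0.27 for Hnf4a, -0.16 to 0.66 for Mgam, -0.19 to 0.61 for Sis, -0.79 to 0.13 for Slc2a1, -0.66 to 0.038 for Slc2a5, -0.26 to 0.42 for Tkfc and -0.35 to 0.053 for Txnip. In early cells they ranged from -0.19 to 0.23 for Fbp1, -0.14 to 0.078 for Hnf4a, -0.080 to 0.35 for Slc2a1 and -0.34 to 0.025 for Txnip. In crypt-like cells they ranged from -0.17 to 0.16 for Khk, -0.035 to 0.41 for Slc5a1 and -0.12 to 0.44 for Tkfc, in unassigned cells from -0.22 to 0.81 for Slc2a5, and for the difference between stages from -0.0023 to 0.79 for Fbp1. The alternatives of the unassigned class, the block with doublets removed, the mature cluster of more UMIs, the doublet limit and the mature-marker score were chosen after the data were seen. Mature enterocyte-like cells numbered 167 to 912 in a WT library, and in simulated counts of that comparison 38.1% of 2-fold changes were recovered, so changes of that size or smaller can be missed there.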
